A study of Arabidopsis thaliana with 9 samples.

Results

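The response shared by both phenotypes of Arabidopsis thaliana plants suppressed for MSH1 was measured on 9 Affymetrix arrays, as the mean of the variegated and stunted group means against wild type. The variegated group held 3 arrays of msh1 RNAi plants with a variegated phenotype, the stunted group 3 arrays of msh1 RNAi plants with a stunted phenotype, and the wild-type group 3 arrays of wild-type plants. All groups were in the Col-0 background, and RNA came from the above-ground part of 8-week-old plants grown in a greenhouse with equal day and night. The labels call the replicates biological and call each RNAi phenotype a transgenic line. They do not say how many independent transformants a line holds, nor which promoter drives the RNAi construct. A gene belonged to the shared response when all 6 RNAi arrays lay on 1 side of all 3 wild-type arrays, called separated here, and it was described further when the mean of the RNAi groups also passed limma's test (adjusted p under 0.05 over all 22746 probe sets). Of 13356 genes with a probe set of their own, 1114 were separated and 524 of these passed the test, 263 of them higher (1.97% of the genes) and 261 lower (1.95%) in the RNAi plants. Values are log2 expression values, so a difference of 1 is a doubling of the signal, and a level is never compared between genes.

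MSH1 is a nuclear gene for a MutS-like protein that is imported into mitochondria and plastids. Its loss is known to let the organelle genomes recombine at repeated sequences, and msh1 plants are known for leaf variegation, dwarfing and altered stress responses. Plants answer failing mitochondria and plastids by changing nuclear genes for stress proteins, organelle chaperones and growth, known as retrograde signalling. The level of MSH1 itself was not analysed here, so no value of the targeted gene checks the labels.

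The arrays resembled each other closely. Their medians lay between 3.37 and 3.43, and correlations across probe sets were 0.9738 to 0.9912 for the 18 pairs of an RNAi and a wild-type array, against 0.9855 to 0.9946 for the 9 pairs within a group. The 9 pairs of a variegated and a stunted array correlated at 0.9797 to 0.9902, inside the range of RNAi against wild type. Control signals of RNA quality overlapped between RNAi and wild type. The actin 3' minus 5' difference averaged 1.40 ± 0.37 in RNAi arrays and 1.26 ± 0.26 in wild type (SD, n = 6 and 3, exact permutation p = 0.643). The 25S rRNA probe set varied most, at 6.70 ± 2.25 in RNAi arrays and 4.96 ± 1.28 in wild type (exact permutation p = 0.262), and the bioB spike-in stood at 6.95 ± 0.50 in RNAi arrays and 7.81 ± 0.91 in wild type (p = 0.143, exact permutation, two-sided). With 84 possible groupings the smallest such p is 0.0238. The samples were whole above-ground tissue, so fewer cells of a type and less RNA per cell cannot be told apart in any result.

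Among all probe sets, 696 (3.06%) were called higher and 658 (2.89%) lower in the RNAi mean than in wild type, and 1192 (5.24%) had all 6 RNAi arrays above and 957 (4.21%) all 6 below the wild-type arrays. Among genes, 320 (2.4%) were called higher and 326 (2.44%) lower, and 605 (4.53%) were separated above and 509 (3.81%) below. Called and separated together were 263 genes higher (1.97%) and 261 lower (1.95%), which is 81.1% of the called genes and 47% of the separated ones. The median change of all genes was 0.01. Most shared changes were small: the median was 0.51 among the genes that rose and -0.55 among those that fell, and a change of at least 1 was reached by 17 and 32 genes. The most extreme probe sets of all changed by 2.84 and -3.25, and 708 of the called probe sets had no gene of their own and are not named. The counts depended on single arrays. Leaving out variegated replicate 2 or wild-type replicate 1, 2 or 3 gave totals of 428, 341, 336 and 396 probe sets called higher. The totals called lower were 432 and 386 without variegated replicates 1 and 2, and 406, 272 and 328 without wild-type replicates 1, 2 and 3. When the 6 RNAi arrays were fitted as 1 group, so that the difference between the phenotypes counted as error, 165 were called higher and 152 lower. Of the 88 called genes named here, 58 were not called in that fit, 30 were not called with the bioB signal as a covariate and 16 with the 25S signal.

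The largest shared changes included a fall and a rise of nearly the same size in both phenotypes. AT2G33850 read 2.83, 3.01 and 2.71 in variegated plants and 2.59, 2.73 and 2.80 in stunted plants, against 5.81, 5.73 and 6.55 in wild type. The 6 RNAi arrays formed a narrow band that ended 2.72 below the lowest wild-type array, the widest separation of any gene named here. All 6 values lay below the array medians (3.37 to 3.43), toward the floor of the scale, where a difference between the phenotypes can be compressed. The change was -3.25 (SE 0.17, 0.105 times the wild-type signal, adjusted p = 9.45e-05), and stunted and variegated plants differed by -0.15 (SE 0.19, adjusted p = 0.808). AT1G43590, which the reference gene table lists as a pseudogene, went the other way, with 5.30, 5.06 and 5.51 in variegated, 5.08, 5.05 and 5.51 in stunted and 2.96, 2.73 and 2.86 in wild-type plants. Again the RNAi arrays overlapped each other and lay far from wild type, with a gap of 2.09. It rose by 2.40 (SE 0.13, 5.29-fold, adjusted p = 9.45e-05), and the phenotypes differed by -0.08 (SE 0.15). Both genes passed with every one of the 9 arrays left out in turn.

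Among the genes called and separated with a change of at least 1, these 2 and rpl20, JMT and BSMT1 had the smallest differences between the phenotypes. The RNAi values of JMT and BSMT1 lay near or below the array medians (3.37 to 3.43), where such differences can be compressed. JMT encodes the enzyme that methylates jasmonic acid, a wound and defence hormone. Its level was 3.08, 3.39 and 3.31 in variegated and 3.44, 3.02 and 3.14 in stunted plants, against 4.0, 5.15 and 4.44 in wild type. The RNAi groups covered the same range, and both lay below wild type. JMT fell by 1.30 (SE 0.22, adjusted p = 0.011), with -0.06 between stunted and variegated (SE 0.25). BSMT1 methylates salicylic and benzoic acid to volatile esters, and it read 3.15, 3.54 and 3.54 in variegated, 3.48, 2.80 and 3.56 in stunted and 4.13, 5.27 and 4.1 in wild-type plants. It fell by 1.16 (SE 0.27, adjusted p = 0.0416), but wild-type replicate 2 stood above the other wild-type arrays, and the call was lost when a single variegated or wild-type array or stunted replicate 2 was omitted (adjusted p up to 0.0939). It was also lost with the actin, 25S or bioB control signal as a covariate (adjusted p = 0.0569, 0.0916 and 0.0984).

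**Figure D1:**
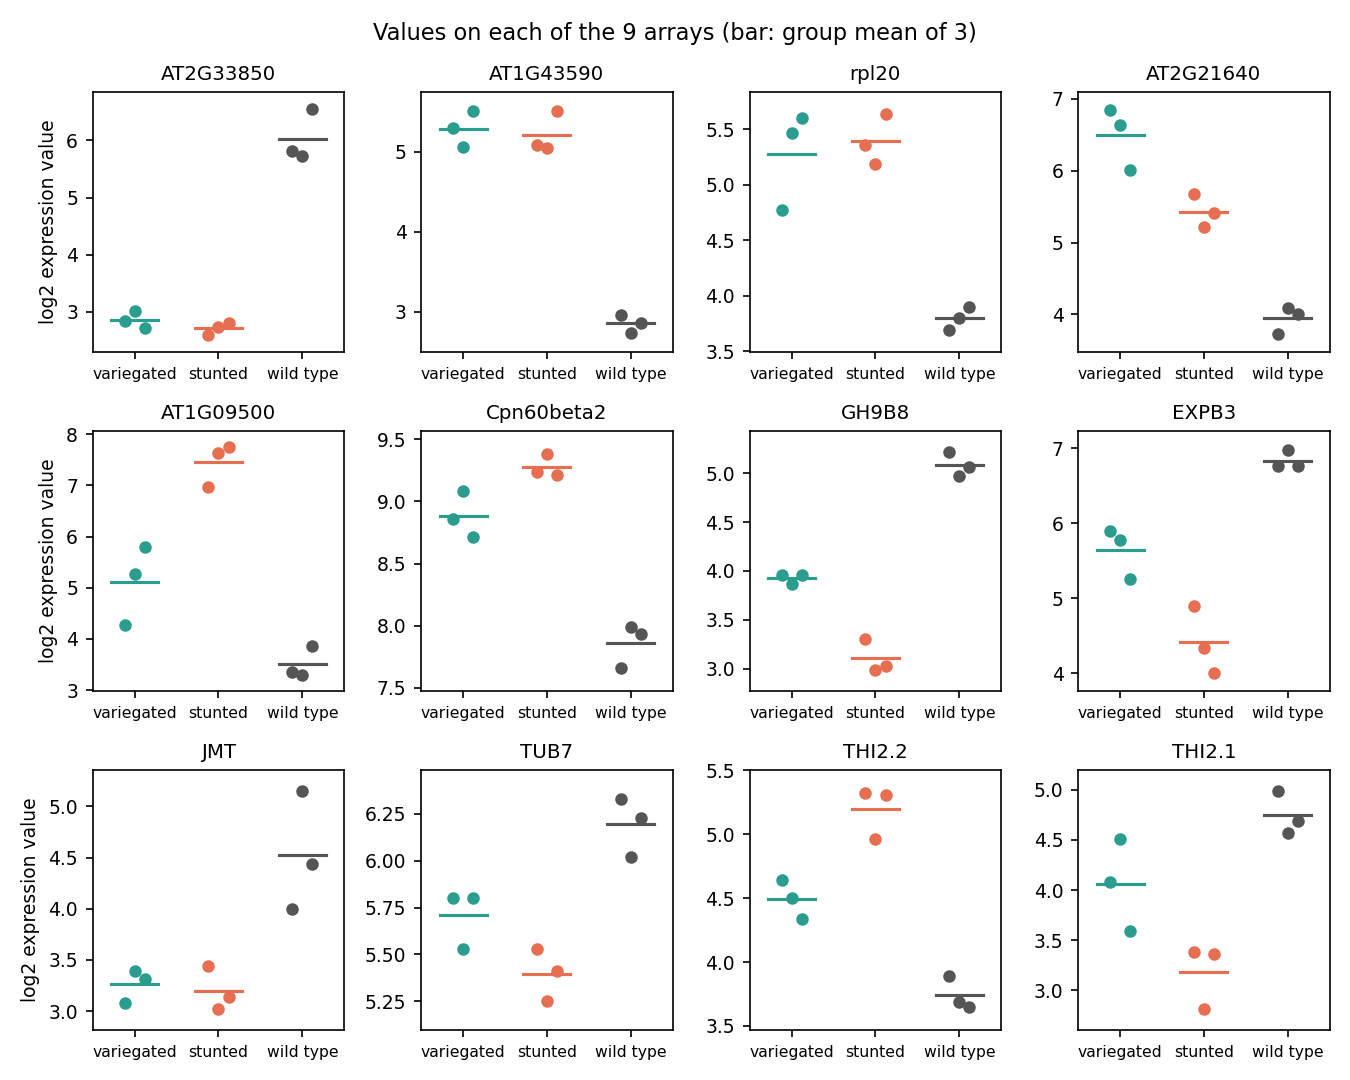
Log2 expression values (y axis) of 12 genes on the 3 variegated, 3 stunted and 3 wild-type arrays (x axis), with a bar at each group mean. In AT2G33850, AT1G43590, rpl20 and JMT the variegated and stunted points cover nearly the same range, while in AT1G09500, GH9B8 and EXPB3 the stunted points lie farther from wild type and in AT2G21640 the variegated points do.

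Several genes of the mitochondrial dysfunction response, the nuclear genes that plants induce when respiration fails, were higher in RNAi plants. Of 11 measured members of this list, 4 rose (36.4%, against 2.4% of all genes) and 0 fell (7 did not pass), 3 of the 4 being separated, and the list's median change was 0.36 against 0.01 over all genes. AT2G21640, induced by oxidative stress, stood at 6.84, 6.63 and 6.01 in variegated and 5.67, 5.21 and 5.41 in stunted plants, against 3.73, 4.09 and 4.01 in wild type. Every RNAi array was at least 1.11 above the wild-type arrays, and the variegated arrays were the highest. The gene rose by 2.02 (SE 0.18, 4.05-fold, adjusted p = 0.00089), and it was lower in stunted than in variegated plants by 1.07 (SE 0.21, adjusted p = 0.0408). AT5G43450, an oxygenase gene, read 5.80, 5.59 and 5.17 in variegated and 5.28, 5.28 and 5.45 in stunted plants, against 4.04, 3.88 and 4.31 in wild type. It rose by 1.35 (SE 0.14, adjusted p = 0.00179), with a difference of -0.18 between stunted and variegated (SE 0.16, adjusted p = 0.677).

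The other members that rose were carried mainly by the variegated plants. AT2G41730 stood at 7.38, 6.99 and 5.89 in variegated plants and 6.15, 4.18 and 4.04 in stunted plants, against 2.92, 3.46 and 3.98 in wild type. Stunted replicates 2 and 3 lay close above the highest wild-type array, so that the gap was 0.06. It rose by 2.32 (SE 0.50, adjusted p = 0.0294), a call that was lost without variegated replicate 1 or 2 or any single wild-type array (adjusted p up to 0.119). AT5G09570, a gene for a small cysteine-rich mitochondrial protein, read 5.96, 5.94 and 4.96 in variegated plants, 3.15, 3.47 and 3.24 in stunted plants and 3.17, 3.3 and 2.97 in wild type. It passed in the mean of the RNAi groups (1.31, SE 0.21, adjusted p = 0.00946), yet the stunted arrays overlapped wild type, so it was not part of the shared response. The alternative NADH dehydrogenase genes NDB1, NDB2, NDB3 and NDB4 in the list changed by 0.09, 0.27, 0.30 and 0.22 and did not pass. NDC1, which encodes an alternative NAD(P)H dehydrogenase found in mitochondria and plastids, rose by 0.59 (SE 0.12, adjusted p = 0.0264). It read 6.11, 6.04 and 6.27 in variegated, 6.42, 6.47 and 6.54 in stunted and 5.39, 6.02 and 5.75 in wild-type plants, a separation of 0.02, and its call was lost without variegated replicate 1 or 3, stunted replicate 2 or wild-type replicate 1 or 3 (adjusted p up to 0.0761).

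Transcripts encoded in the mitochondrial genome were higher in part. Of 16 measured, 4 rose (25%, against 2.4% of all genes) and 0 fell (12 did not pass), all 4 were separated, and the median change was 0.28. The 2 largest rises were in ccb382 and ccb452, genes for the maturation of c-type cytochromes. For ccb452 the values were 5.18, 5.28 and 5.08 in variegated and 4.88, 4.65 and 4.91 in stunted plants, against 4.3, 4.28 and 4.0 in wild type. All RNAi arrays exceeded wild type by at least 0.35, for a change of 0.80 (SE 0.09, adjusted p = 0.00271). In ccb382 the values were 4.50, 4.89 and 4.64 in variegated, 4.1, 4.55 and 4.41 in stunted and 4.01, 3.73 and 3.37 in wild-type plants. It rose by 0.81 (SE 0.15, adjusted p = 0.017), and the call was lost without wild-type replicate 2 or 3 (adjusted p up to 0.0618).

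The other 2 encode subunits of respiratory complex I. For nad5 the values were 3.64, 3.36 and 3.42 in variegated, 3.22, 3.17 and 3.17 in stunted and 2.99, 2.75 and 2.91 in wild-type plants, and the gene rose by 0.45 (SE 0.08, adjusted p = 0.0144, and 0.0625 without wild-type replicate 2). nad9 read 3.47, 3.88 and 3.44 in variegated, 3.67, 3.45 and 3.68 in stunted and 3.21, 3.19 and 2.93 in wild-type plants. Its rise of 0.49 (SE 0.12, adjusted p = 0.041) was lost when any array other than variegated replicate 3 was omitted (adjusted p up to 0.14). Of the members that did not pass, nad2, nad7 and nad6 changed by -0.02, -0.01 and 0.01, and cox1 and cox2 of cytochrome c oxidase by 0.52 and 0.57. The first 3 read near or below the array medians (3.37 to 3.43), where a change can be compressed. The wild-type values of nad5 and nad9 and the stunted values of nad5 lay below those medians too. In nad1 (0.33, adjusted p = 0.0664) the phenotypes differed, at 0.76 in variegated and -0.11 in stunted plants (stunted minus variegated -0.87, SE 0.10, adjusted p = 0.00684). There were 7 probe sets for nad1 and 2 for nad5, and only the brightest of each is given. Per the labels the RNA was labelled by Affymetrix's standard protocol, which primes on poly(A) tails. Plant organelle transcripts mostly lack stable tails, so their values measure labelled RNA and not total organelle RNA.

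A copy of much of the mitochondrial genome is inserted in chromosome 2, and a probe set there can pick up transcripts of either copy. Of 33 measured genes with locus codes of that stretch, 2 were called higher (6.06%, against 2.4% of all genes) and 1 lower (3.03%, against 2.44%, so near that of all genes), with a median of 0.07. AT2G07707 read 7.29, 6.93 and 6.67 in variegated and 7.25, 6.93 and 7.34 in stunted plants, against 5.89, 6.03 and 6.09 in wild type. It rose by 1.06 (SE 0.14, 2.09-fold, adjusted p = 0.00427), with a gap of 0.58 to wild type. AT2G07722 rose in the mean by 0.72 (SE 0.16, adjusted p = 0.0349) without being separated, since it changed by 1.35 in variegated and 0.08 in stunted plants. Its call was lost without variegated replicate 1, stunted replicate 2 or 3 or any single wild-type array (adjusted p up to 0.116). AT2G07777, which was near the low end of the scale, fell by 0.41 (SE 0.08, adjusted p = 0.0219, and up to 0.0888 without wild-type replicate 2 or 3).

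Plastid-encoded transcripts rose in 5 of 69 measured genes (7.25%, against 2.4% of all genes) and fell in 0 (64 did not pass). All 5 were separated, and the median change was 0.18. The genes that rose serve plastid gene expression, protein turnover and assembly: rpl20 and rps4 encode ribosomal proteins, rpoC2 a subunit of the plastid RNA polymerase, clpP the proteolytic subunit of the Clp protease and ycf3 a photosystem I assembly factor. For rpl20 the values were 4.77, 5.47 and 5.60 in variegated and 5.36, 5.19 and 5.64 in stunted plants, against 3.69, 3.80 and 3.90 in wild type. All RNAi arrays lay at least 0.88 above wild type, and the phenotypes overlapped. The rise was 1.54 (SE 0.18, 2.91-fold, adjusted p = 0.00248), with 0.11 between stunted and variegated (SE 0.20).

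The other 4 were separated by less. ycf3 read 4.71, 5.39 and 4.99 in variegated, 4.85, 5.33 and 5.81 in stunted and 4.43, 3.90 and 4.01 in wild-type plants, and rose by 1.07 (SE 0.22, adjusted p = 0.0241, and up to 0.102 without variegated replicate 2 or 3, stunted replicate 2 or wild-type replicate 2 or 3). For clpP the values were 11.02, 11.72 and 11.42 in variegated, 11.61, 11.22 and 11.64 in stunted and 10.87, 10.40 and 10.08 in wild-type plants, and the rise was 0.99 (SE 0.20, adjusted p = 0.0219, and up to 0.0848 without wild-type replicate 2 or 3). rps4 stood at 11.01, 11.75 and 11.24 in variegated, 11.29, 11.81 and 11.84 in stunted and 10.86, 10.50 and 10.40 in wild-type plants, a rise of 0.90 (SE 0.19, adjusted p = 0.0242, and up to 0.0971 without stunted replicate 2 or wild-type replicate 2 or 3). The fifth, rpoC2, fell outside the naming rule and is given because the count is small. It read 5.12, 5.28 and 5.35 in variegated, 5.60, 5.68 and 6.14 in stunted and 4.86, 4.97 and 4.65 in wild-type plants and rose by 0.70 (SE 0.13, adjusted p = 0.0145).

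No plastid-encoded gene of the photosynthetic complexes passed, among them rbcL of Rubisco at 0.35, psbA of photosystem II at 0.68 and psaJ of photosystem I at -0.44. The ATP synthase gene atpA, at 0.84 (adjusted p = 0.0638), changed more than rpoC2. Other ribosomal protein genes were mixed, with rpl16 at 1.36 and rpl22 at -0.33, neither passing. The mean over the 69 genes was 7.63, 8.09 and 8.17 in variegated plants and 7.82, 8.29 and 8.69 in stunted plants, against 8.05, 7.87 and 7.58 in wild type, so the groups overlapped as a whole. In the same arrays the 25S rRNA signal was 4.49, 4.97 and 8.66 in variegated plants and 4.50, 8.99 and 8.58 in stunted plants, against 4.25, 4.19 and 6.44 in wild type. With that signal as a covariate, rpl20 and clpP passed (adjusted p = 0.00619 and 0.0305), whereas ycf3 and rps4 did not (0.0562 and 0.0568).

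Nuclear genes for plastid gene expression and protein folding rose in 5 of 10 measured members (50%, against 2.4% of all genes) and fell in 0 (5 did not pass), with a median change of 0.44. Cpn60beta2, a subunit of the plastid chaperonin that folds imported and plastid-made proteins, stood at 8.86, 9.08 and 8.71 in variegated and 9.24, 9.38 and 9.21 in stunted plants, against 7.66, 7.99 and 7.93 in wild type. Its lowest RNAi array was 0.72 above the highest wild-type array. It rose by 1.22 (SE 0.10, 2.33-fold, adjusted p = 0.000808) and by 1.02 and 1.42 in variegated and stunted plants taken apart. RAP, which serves the maturation of plastid 16S rRNA, read 6.65, 6.74 and 6.78 in variegated, 7.03, 7.52 and 7.72 in stunted and 5.91, 6.33 and 6.20 in wild-type plants. It rose by 0.93 (SE 0.15, adjusted p = 0.00912). CAF1, a splicing factor for group II introns of plastid transcripts, read 4.29, 4.63 and 4.65 in variegated, 5.01, 5.14 and 5.33 in stunted and 3.54, 4.11 and 4.08 in wild-type plants, and rose by 0.93 (SE 0.14, adjusted p = 0.00833).

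In all 3 of these genes the groups did not overlap, and each passed with any 1 array left out. RH39, a helicase for plastid 23S rRNA, rose by 0.56 (SE 0.13, adjusted p = 0.0377) but was not separated, with 6.24, 6.53 and 6.30 in variegated, 6.73, 6.92 and 6.79 in stunted and 6.0, 6.35 and 5.72 in wild-type plants. Its call was lost in 7 of the 9 omissions, those of stunted replicate 1 and wild-type replicate 2 excepted (adjusted p up to 0.118). Cpn60beta4, the fifth member that rose, falls outside the naming rule. It changed by 0.49 (SE 0.08, adjusted p = 0.012), while Cpn60beta3 of the same family did not pass (-0.49, adjusted p = 0.135). FUG1, the plastid translation initiation factor, did not pass either (0.38, adjusted p = 0.207).

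Several genes of the early steps of chlorophyll synthesis were higher. Of 8 measured genes, 3 rose (37.5%, against 2.4% of all genes), 1 fell and 4 did not pass, with a median change of 0.29. HEMB1, which condenses aminolevulinate to porphobilinogen, stood at 8.84, 8.77 and 8.90 in variegated and 8.87, 8.79 and 8.72 in stunted plants, against 8.42, 8.43 and 8.31 in wild type. The RNAi arrays lay above wild type without overlap, a change of 0.43 (SE 0.06, adjusted p = 0.00677) with -0.04 between the phenotypes. HEMA2 and GSA1, which make aminolevulinate, rose by 0.45 (SE 0.09, adjusted p = 0.0184) and 0.42 (SE 0.09, adjusted p = 0.0277), both separated. The HEMA2 call was lost when any wild-type array was omitted (adjusted p up to 0.0692), as was that of GSA1 in 6 of 9 omissions, those of variegated replicate 1 and stunted replicates 1 and 3 excepted (up to 0.0902). PORB, which reduces protochlorophyllide near the end of the pathway, fell by 0.50 in the mean (SE 0.11, adjusted p = 0.0333) but was not separated, at 9.93, 10.06 and 10.20 in variegated, 9.39, 9.34 and 9.54 in stunted and 9.97, 10.29 and 10.48 in wild-type plants. Its call was lost without variegated replicate 1 or 2, stunted replicate 2 or wild-type replicate 2 or 3 (adjusted p up to 0.118).

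Nuclear genes of the photosystems and light-harvesting antennae did not pass in any of 7 measured members (median -0.07), the smallest p belonging to LHCB4.3 (-0.53, adjusted p = 0.0694). CCS, the copper chaperone that loads copper-zinc superoxide dismutase, was the 1 of 6 antioxidant genes to pass (16.7%, against 2.4% of all genes called higher). It read 7.81, 7.65 and 7.51 in variegated and 7.97, 8.34 and 8.43 in stunted plants, against 6.77, 6.65 and 6.81 in wild type. Every RNAi array was at least 0.70 above the wild-type arrays, and the rise was 1.21 (SE 0.11, 2.31-fold, adjusted p = 0.00101).

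**Figure D2:**
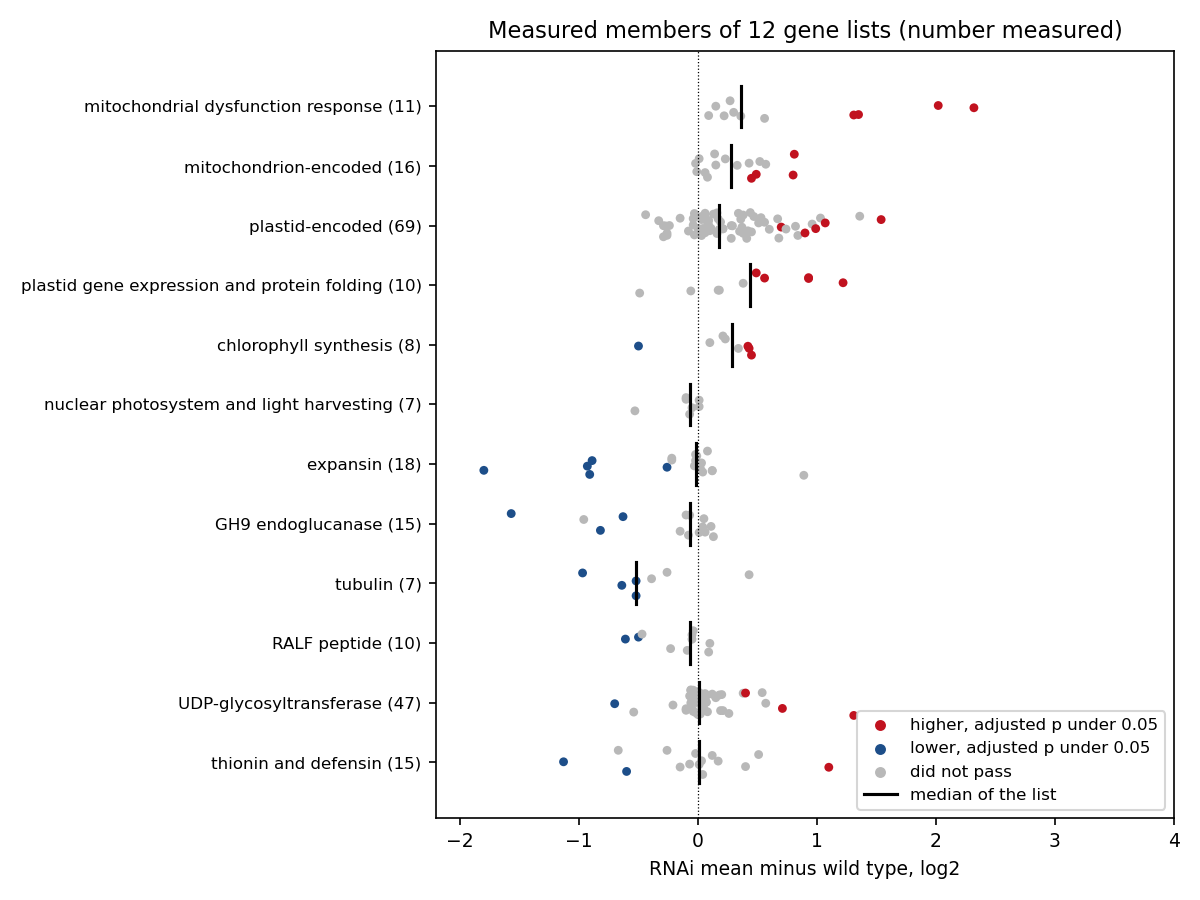
Change of the RNAi mean against wild type (x axis, log2) for each measured member of 12 gene lists (rows, number measured in brackets), coloured by limma's call, with a black bar at each list's median. Called members of the organelle lists lie to the right of 0 except PORB, and those of the expansin, GH9 endoglucanase, tubulin and RALF lists lie to the left.

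Several genes that loosen and remodel the cell wall were lower in RNAi plants. Expansins, proteins that loosen the wall during growth, fell in 5 of 18 measured members (27.8%, against 2.44% of all genes) and rose in 0 (13 did not pass). The 5 were all separated, while the median of the family was -0.02. EXPB3 had 5.90, 5.78 and 5.26 in variegated and 4.90, 4.34 and 4.01 in stunted plants, against 6.76, 6.98 and 6.76 in wild type. The stunted arrays were the lowest, and the highest RNAi array was 0.86 below wild type. EXPB3 fell by 1.80 (SE 0.20, 0.286 times the wild-type signal, adjusted p = 0.00215), by 1.19 in variegated and 2.42 in stunted plants.

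EXPA16 read 5.45, 5.45 and 5.45 in variegated, 5.24, 4.93 and 4.60 in stunted and 6.15, 5.98 and 6.11 in wild-type plants, and fell by 0.89 (SE 0.12, adjusted p = 0.00462). EXPA4 fell by 0.93 (SE 0.19, adjusted p = 0.0231, and up to 0.0995 when variegated replicate 2, stunted replicate 2 or any of the wild-type arrays was omitted). EXLB1, expansin-like, fell by 0.91 (SE 0.18, adjusted p = 0.0192, and up to 0.0726 without wild-type replicate 2 or 3). EXPA9, the fifth and outside the naming rule, fell by 0.26 (SE 0.06, adjusted p = 0.0396). The expansin-like gene EXLA1 went the other way without passing, at 0.89 (adjusted p = 0.0967).

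The GH9 family of endoglucanases, which cut glucans of the wall, fell in 3 of 15 measured members (20%, against 2.44% of all genes) and rose in 0 (12 did not pass), with a median of -0.07. GH9B8 stood at 3.96, 3.87 and 3.96 in variegated and 3.3, 2.98 and 3.03 in stunted plants, against 5.22, 4.97 and 5.06 in wild type. The 3 groups did not overlap, in the order stunted, variegated, wild type from low to high. It fell by 1.57 (SE 0.09, 0.337 times the wild-type signal, adjusted p = 9.45e-05), and stunted plants were lower than variegated plants by 0.83 (SE 0.10, adjusted p = 0.00742). GH9B13 fell by 0.82 (SE 0.11, adjusted p = 0.00477), at 4.64, 4.68 and 4.73 in variegated, 4.18, 3.86 and 3.98 in stunted and 5.46, 5.05 and 5.01 in wild-type plants. GH9B7 fell by 0.63 (SE 0.13, adjusted p = 0.0241), a call lost when any variegated or wild-type array was omitted (up to 0.0945).

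In other wall families 1 member each fell. These were 1 of 4 pectin methylesterases, 1 of 7 cellulose synthase-family genes and 1 of 22 members of the TBL family, which acetylates wall polysaccharides. The TBL share, 4.55%, is near the 2.44% of all genes, and single calls say nothing about a family. PME61, the pectin methylesterase, read 3.23, 3.31 and 3.37 in variegated and 2.95, 3.31 and 2.96 in stunted plants, against 4.22, 3.98 and 4.07 in wild type, and fell by 0.90 (SE 0.10, adjusted p = 0.00195). TBL36 read 5.32, 5.07 and 5.19 in variegated, 4.53, 4.49 and 4.90 in stunted and 5.90, 5.78 and 5.73 in wild-type plants, and fell by 0.89 (SE 0.10, adjusted p = 0.00271). In both genes the RNAi arrays lay below wild type without overlap, and both passed with any 1 array left out. CSLC04, which makes the glucan backbone of xyloglucan, fell by 0.75 (SE 0.13, adjusted p = 0.0114, and 0.0555 without wild-type replicate 2), missing separation because variegated replicate 3 and wild-type replicate 1 both read 5.92. The 9 xyloglucan endotransglucosylases had 0 calls, with XTH32 nearest to the threshold (-0.75, adjusted p = 0.0522).

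Tubulin genes, whose products form the microtubules that guide cell expansion and division, fell in 4 of 7 measured members (57.1%, against 2.44% of all genes) and rose in 0 (3 did not pass), with a median of -0.52. TUB7 read 5.80, 5.53 and 5.80 in variegated and 5.53, 5.25 and 5.41 in stunted plants, against 6.33, 6.02 and 6.23 in wild type, and fell by 0.64 (SE 0.10, adjusted p = 0.0082). TUB6 read 7.95, 7.89 and 7.89 in variegated, 7.48, 7.44 and 7.62 in stunted and 8.13, 8.18 and 8.40 in wild-type plants, and fell by 0.52 (SE 0.07, adjusted p = 0.00633). Neither gene had overlapping RNAi and wild-type arrays, and the 2 passed with any 1 array left out. TUB9 fell by 0.52 (SE 0.11, adjusted p = 0.0255), a call that remained only without stunted replicate 1 or 3 (up to 0.0961 in the other omissions). TUB1 had the largest change, -0.97 (SE 0.17, adjusted p = 0.0129, and up to 0.0552 without wild-type replicate 1 or 3), but variegated replicate 3 at 3.82 lay above wild-type replicate 2 at 3.78. The alpha-tubulin genes TUA6 and TUA1 did not pass, at -0.26 and 0.43, and neither did TUB5 at -0.39. Tubulin genes are close paralogs, and probe sets may share signal between them.

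Of 2 measured genes of cell division, 1 fell (50%, against 2.44% of all genes). SIM, which blocks cyclin-dependent kinases and stops division during trichome and leaf cell differentiation, stood at 3.77, 3.55 and 3.58 in variegated and 3.76, 3.38 and 3.57 in stunted plants, against 4.51, 4.14 and 4.56 in wild type. The RNAi groups overlapped each other and lay 0.37 or more below wild type. SIM fell by 0.80 (SE 0.12, adjusted p = 0.00659), with -0.06 between stunted and variegated (SE 0.13). PRL, the other, did not pass (-0.34, adjusted p = 0.191).

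RALF peptides are secreted signals, several of which are known to restrain cell expansion. Of 10 measured, 2 fell (20%, against 2.44% of all genes) and 0 rose. RALFL34 had 8.77, 8.82 and 8.77 in variegated and 8.58, 8.36 and 8.37 in stunted plants, against 9.20, 9.23 and 9.22 in wild type, a change of -0.61 (SE 0.06, adjusted p = 0.00195) with tight groups that did not overlap. RALFL31 fell by 0.50 (SE 0.09, adjusted p = 0.0133, and 0.0574 without wild-type replicate 3). NRPA2 encodes the second-largest subunit of the RNA polymerase that transcribes ribosomal RNA genes. It was the 1 of 12 nuclear polymerase subunits called (8.33%, against 2.4% of all genes called higher). It read 5.01, 5.38 and 4.86 in variegated and 6.14, 5.98 and 5.94 in stunted plants, against 4.48, 4.62 and 4.52 in wild type, and rose by 1.01 (SE 0.11, 2.02-fold, adjusted p = 0.00208), more in stunted than in variegated plants by 0.94 (SE 0.13, adjusted p = 0.012).

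Hormone and defence genes were mixed. In the jasmonate list 2 of 4 fell (50%, against 2.44% of all genes) and 0 rose. Beside JMT it was AT2G38240, an oxygenase that inactivates jasmonate, with 5.07, 4.84 and 5.65 in variegated and 5.65, 5.41 and 5.68 in stunted plants, against 6.90, 6.70 and 6.51 in wild type. AT2G38240 fell by 1.32 (SE 0.17, adjusted p = 0.00351), the RNAi arrays lying 0.84 or more below wild type. EIN3, the transcription factor at the centre of ethylene signalling, fell by 0.41 (SE 0.07, adjusted p = 0.012, and 0.0552 without wild-type replicate 2), at 7.53, 7.70 and 7.63 in variegated, 7.61, 7.56 and 7.40 in stunted and 8.03, 8.02 and 7.90 in wild-type plants. BCAT4, which starts the chain elongation of methionine for glucosinolates, fell by 0.56 (SE 0.14, adjusted p = 0.0462), a call that remained only without stunted replicate 1 or 3 (up to 0.135 in the other omissions).

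The 2 measured thionins, small antimicrobial peptides, moved in opposite directions. THI2.2 read 4.64, 4.50 and 4.34 in variegated and 5.32, 4.96 and 5.31 in stunted plants, against 3.89, 3.69 and 3.65 in wild type, and rose by 1.10 (SE 0.11, adjusted p = 0.00128). THI2.1 read 4.08, 4.51 and 3.59 in variegated and 3.38, 2.81 and 3.36 in stunted plants, against 4.99, 4.57 and 4.69 in wild type. It fell by 1.13 (SE 0.20, adjusted p = 0.0147, and up to 0.0659 without wild-type replicate 1 or 3). Both were separated, THI2.1 by only 0.06. Of the 15 thionin and defensin genes 1 rose and 2 fell (20% called, against 4.84% of all genes), with a median of 0.01. The third called gene was the defensin-like LCR68 (-0.60, SE 0.08, adjusted p = 0.00433).

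Lectin genes fell in 2 of 5 (40%, against 2.44% of all genes) and rose in 0. The 3 that did not pass changed by more than 0, and the median of the list was 0.15. Stunted minus variegated was called higher in 2 of the 5. JAL23, a jacalin-related lectin, had 5.88, 5.97 and 4.96 in variegated and 5.58, 5.28 and 4.29 in stunted plants, against 6.85, 7.21 and 7.31 in wild type. It fell by 1.80 (SE 0.30, 0.288 times the wild-type signal, adjusted p = 0.0117, and up to 0.0544 without wild-type replicate 2 or 3), with replicate 3 the lowest in each RNAi group. EULS3, another lectin, fell by 0.59 (SE 0.12, adjusted p = 0.02, and up to 0.0784 without wild-type replicate 2 or 3). Small heat-shock and folding genes rose in 2 of 3 (66.7%, against 2.4% of all genes). They were AT5G48570, a heat-induced immunophilin, at 0.63 (SE 0.15, adjusted p = 0.0429) and AT2G29500 at 0.42 (SE 0.08, adjusted p = 0.0224). The call of AT5G48570 was lost when any variegated or wild-type array was omitted (up to 0.146), and that of AT2G29500 when stunted replicate 2 or a wild-type array was omitted (up to 0.0784). With the actin, 25S or bioB control signal as a covariate AT5G48570 did not pass (adjusted p = 0.0612, 0.0941 and 0.184). AT2G29500 did not pass with bioB (0.0671). The defence regulator WRKY22 rose in the mean by 0.41 (SE 0.07, adjusted p = 0.014, and up to 0.0578 without wild-type replicate 1 or 2) and was not separated.

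In 4 families of detoxifying and transport genes, 6 of 97 measured members rose and 3 fell (6.19% and 3.09%, against 2.4% and 2.44% of all genes). Of 47 UDP-glycosyltransferases, which attach sugars to small molecules, 3 rose and 1 fell, with a median of 0.01. UGT87A2 had 5.18, 5.62 and 5.41 in variegated and 6.76, 6.12 and 6.23 in stunted plants, against 4.38, 4.35 and 5.0 in wild type, and rose by 1.31 (SE 0.19, adjusted p = 0.00618). UGT74D1 rose by 0.71 (adjusted p = 0.0112, and 0.0544 without wild-type replicate 2), and UGT76E11 by 0.40 (adjusted p = 0.0283, and up to 0.116 without variegated replicate 2 or 3, stunted replicate 3 or wild-type replicate 1 or 2), the last without separation. UGT72E1, which acts on phenylpropanoid aldehydes, fell by 0.70 (SE 0.09, adjusted p = 0.00336). Of 13 glutathione S-transferases GSTU16 rose (0.56, adjusted p = 0.0135) and GSTU20 fell (-0.77, adjusted p = 0.0282, and up to 0.104 without variegated replicate 2 or 3 or any single wild-type array). Of 23 cytochrome P450 genes CYP71B6 alone was called (0.40, adjusted p = 0.0128, and 0.0525 without wild-type replicate 3).

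In the SWEET family of sugar transporters 1 of 14 rose and 1 fell (7.14% each, against 2.4% and 2.44% of all genes). SWEET2 read 4.55, 4.32 and 4.80 in variegated and 6.20, 6.18 and 5.55 in stunted plants, against 4.38, 4.31 and 3.84 in wild type. It rose in the mean by 1.09 (SE 0.18, adjusted p = 0.011), but variegated replicate 2 fell below wild-type replicate 1, so it was not separated. SWEET17, a fructose carrier of the vacuole membrane, fell by 0.37 (SE 0.09, adjusted p = 0.0497) and passed with only stunted replicate 1 left out (up to 0.164 in the other omissions). It did not pass with the actin, 25S or bioB control signal as a covariate (adjusted p = 0.0729, 0.107 and 0.0808).

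Among the largest rises outside these lists, AT1G09500, a cinnamyl alcohol dehydrogenase-like gene, had 4.28, 5.26 and 5.79 in variegated and 6.96, 7.64 and 7.74 in stunted plants, against 3.36, 3.3 and 3.87 in wild type. The 3 groups did not overlap and the stunted arrays were highest. It rose by 2.77 (SE 0.31, 6.81-fold, adjusted p = 0.00238). AT1G05340 read 4.69, 5.04 and 4.87 in variegated, 7.54, 6.77 and 6.96 in stunted and 4.38, 3.31 and 4.18 in wild-type plants and rose by 2.02 (SE 0.24, adjusted p = 0.00314), variegated plants being nearer to wild type. AT3G57020, a strictosidine synthase-like gene, and AT1G68440 rose by 1.45 (SE 0.08, adjusted p = 0.000113) and 1.37 (SE 0.10, adjusted p = 0.000358). AT3G57020 had 6.62, 6.86 and 6.62 in variegated, 8.06, 8.02 and 7.85 in stunted and 5.91, 5.78 and 5.99 in wild-type plants, with 3 tight groups.

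Among the largest falls, AT1G54020, a GDSL-type lipase gene, read 3.4, 3.39 and 3.00 in variegated and 3.29, 3.16 and 2.86 in stunted plants, against 5.18, 5.09 and 4.22 in wild type. The RNAi groups overlapped, and the gene fell by 1.65 (SE 0.21, adjusted p = 0.00386). The lipid-transfer family, small secreted proteins that bind lipids, gave 4 of the 12 largest falls: AT5G05960 (-1.60, SE 0.21, adjusted p = 0.00406), AT3G53980 (-1.59, SE 0.28, adjusted p = 0.0128), AT1G62500 (-1.51, SE 0.24, adjusted p = 0.00951) and AT4G33550 (-1.46, SE 0.27, adjusted p = 0.0154). This grouping was made after the falls were ranked. The measured members of the family were not counted, so the 4 falls say nothing about the family as a whole. AT5G05960 had 6.37, 6.15 and 5.81 in variegated, 5.66, 4.78 and 5.21 in stunted and 7.0, 7.18 and 7.60 in wild-type plants, all RNAi arrays being below wild type. AT3G53980 was lost as a call without wild-type replicate 2 or 3 (adjusted p up to 0.06).

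AT2G14900, a gibberellin-regulated gene, had 6.60, 6.14 and 6.34 in variegated and 5.15, 4.48 and 5.01 in stunted plants, against 7.16, 7.03 and 6.99 in wild type, and fell by 1.44 (SE 0.15, adjusted p = 0.00195). AT5G22580, a stress-responsive barrel-domain gene, had 9.32, 9.22 and 9.24 in variegated and 7.81, 6.73 and 7.55 in stunted plants, against 9.76, 9.68 and 9.78 in wild type. In both genes variegated plants lay just below wild type and stunted plants far below. AT5G22580 fell by 1.43 in the mean (SE 0.19, adjusted p = 0.00505), of which variegated plants contributed a change of -0.48 and stunted plants -2.37. AT1G27030 fell by 1.55 (SE 0.15, adjusted p = 0.00129). Of the 12 largest rises and 12 largest falls, 21 passed with every one of the 9 arrays left out, AT2G41730, JAL23 and AT3G53980 being the exceptions, and 13 passed with the 6 RNAi arrays fitted as 1 group. Of all 524 genes, 182 (34.7%) passed in each omission, 89 higher and 93 lower.

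**Figure D3:**
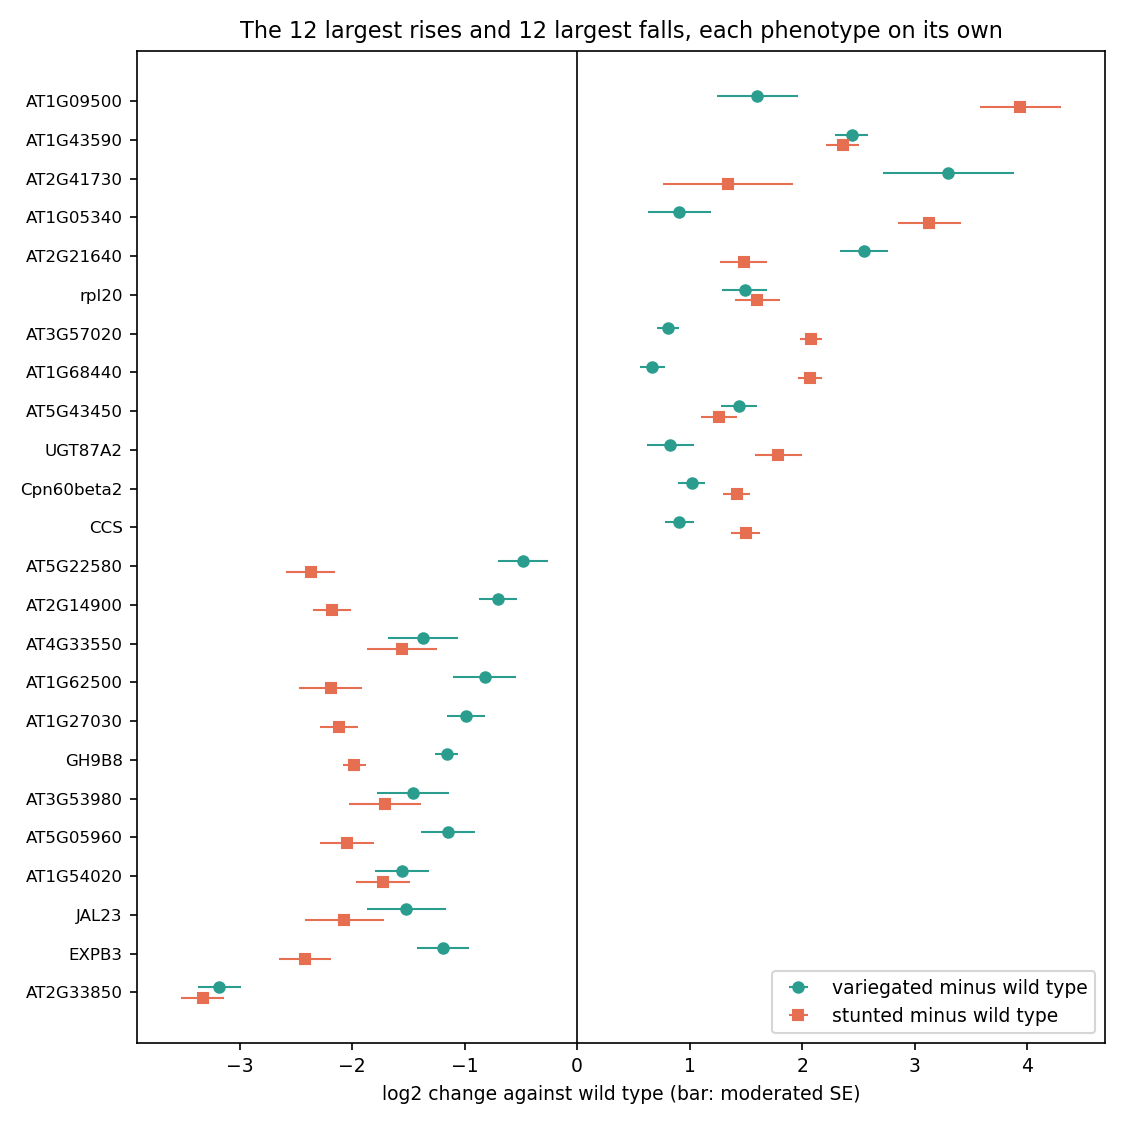
Change against wild type (x axis, log2, bar: moderated SE) of variegated plants (circles) and stunted plants (squares) for the 12 largest rises and the 12 largest falls (rows). Both phenotypes lie on the same side of 0 in each row, and AT2G33850, AT1G43590, rpl20 and AT5G43450 have nearly equal changes while AT5G22580, AT2G14900 and AT1G05340 have far larger ones in stunted plants.

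Within the shared response the stunted plants were usually farther from wild type. These genes were chosen from the same arrays by the mean of both RNAi groups, so a gene moved mainly in 1 phenotype could enter. The counts below therefore describe the chosen genes only. Of the 263 genes that rose, the stunted mean was above the variegated mean in 229 and below it in 34, with a median difference of 0.25 against -0.01 over all genes. The median change of these genes was 0.40 in variegated and 0.63 in stunted plants, both set against the same wild-type arrays. Of the 261 genes that fell, the stunted mean was below the variegated mean in 229 and above it in 32, with a median difference of -0.27, and the median changes were -0.41 in variegated and -0.70 in stunted plants. The difference between the phenotypes, which uses no wild-type array, passed limma's test in 61 of the 524 genes: 26 higher and 1 lower in stunted plants among the genes that rose (10.3%), and 0 higher and 34 lower among those that fell (13%). Over all genes it was called higher in 76 (0.569%) and lower in 113 (0.846%). The 524 genes were called with that same spread, and a small spread favours both calls, so the shares are not an independent comparison.

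The 5 largest of these differences were in AT1G09500 (2.33, SE 0.36, adjusted p = 0.0189), AT1G05340 (2.23, SE 0.28, adjusted p = 0.00879), AT5G22580 (-1.90, SE 0.22, adjusted p = 0.00684), AT2G14900 (-1.48, SE 0.17, adjusted p = 0.00685) and AT1G68440 (1.40, SE 0.11, adjusted p = 0.00134). In each the stunted plants were farther from wild type. The 1 gene that rose and was called lower in stunted than in variegated plants was AT2G21640 of the mitochondrial dysfunction list. AT2G41730 of the same list had a larger difference, -1.96 (SE 0.58), that did not pass (adjusted p = 0.134).

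**Figure D4:**
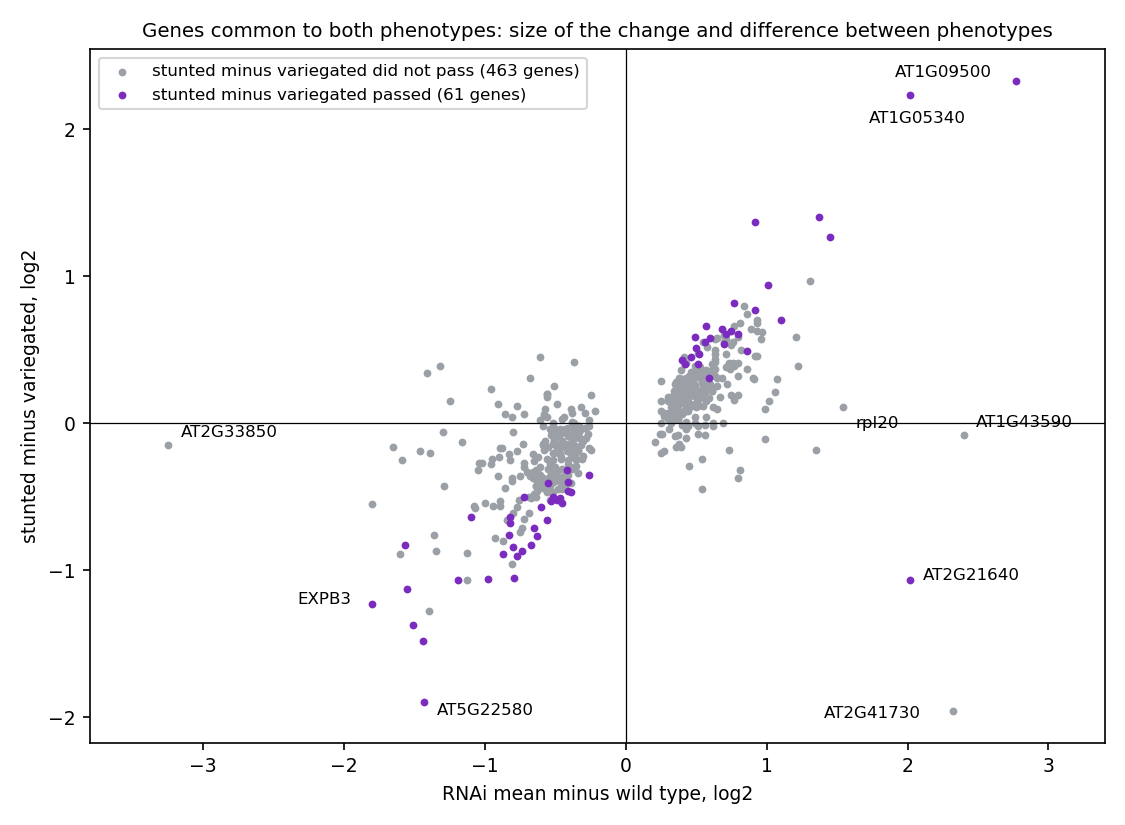
For the 524 genes called and separated, the change of the RNAi mean against wild type (x axis, log2) is plotted against the stunted minus variegated difference (y axis, log2), with the 61 genes whose difference passed in purple. Most rises have a difference above 0 and most falls one below 0, while AT2G21640 and AT2G41730 rose with a difference below 0 and AT2G33850 and AT1G43590 lie close to 0.

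Separation was a matter of small margins for many genes. The median gap between the nearest RNAi and wild-type arrays was 0.16 among the genes that rose and 0.16 among those that fell. Among called genes, those just inside were AT5G47330, AT3G10840, AT3G28460 and AT5G46390, with gaps that round to 0.00, and their changes were -0.83, 0.41, 0.46 and 0.54. Just outside were DRT100, CSLC04, AT5G11420 and POLA3, whose nearest arrays crossed by 0.01 or less and whose changes were -1.0, -0.75, -0.46 and -0.45. In all, 122 called genes were not separated.

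Some called genes were moved mainly by 1 phenotype. PYK10, a beta-glucosidase of endoplasmic reticulum bodies known from roots, read 3.78, 3.95 and 4.09 in variegated and 5.51, 5.55 and 5.98 in stunted plants, against 4.45, 4.09 and 4.01 in wild type. Its mean change of 0.63 (SE 0.13, adjusted p = 0.0282, and up to 0.112 without variegated replicate 2 or 3 or wild-type replicate 2 or 3) came from the stunted arrays, and the stunted minus variegated difference was 1.74 (SE 0.15, adjusted p = 0.0018). DI21, a gene induced by drought, was 6.23, 6.21 and 6.12 in variegated and 4.89, 4.85 and 5.02 in stunted plants, against 5.90, 5.74 and 5.93 in wild type, so the phenotypes lay on opposite sides of wild type. The mean fell by 0.31 (SE 0.07, adjusted p = 0.0344), a call lost without any single variegated array, stunted replicate 2 or wild-type replicate 1 or 3 (up to 0.12).

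Of 16 marker genes of single tissues 2 were called (12.5%, against 4.84% of all genes), 1 higher and 1 lower. Of 5 root markers, PYK10 was the 1 called, and the mean of the 5 was 3.16 to 3.24 in variegated plants and 3.46 to 3.49 in stunted plants, against 3.12 to 3.26 in wild type. The 3 guard cell, 2 pollen and tapetum, 1 floral organ and 1 seed markers measured had 0 calls, with SPCH, ATA27, INO and AT3G22490 at 0.04, -0.12, 0.04 and 0.11. Of the 2 trichome genes SIM fell and TRY did not pass (-0.06, adjusted p = 0.768). The 2 mesophyll markers, LHCB4.3 and LHCB4.1, did not pass (-0.53 and 0.01), and their mean was 10.01 to 10.32 in variegated plants and 9.52 to 9.93 in stunted plants, against 10.06 to 10.39 in wild type. In stunted plants against wild type they changed by -0.88 and -0.03, so the lower stunted mean came from LHCB4.3. The part of such tissues in the shared changes was not tested. Across the remaining lists, the genes with the smallest p were DFR of anthocyanin synthesis (-0.78, adjusted p = 0.157), ARR15 of cytokinin response (-0.28, adjusted p = 0.231), IAA29 of auxin response (-0.20, adjusted p = 0.359), IAA33 of the same family (-0.15, adjusted p = 0.226), GI of the clock (0.14, adjusted p = 0.698), RCA, the activase of Rubisco (0.18, adjusted p = 0.246), OSB1, a binder of organelle DNA (0.04, adjusted p = 0.752), PRXR1 of the peroxidases (-0.63, adjusted p = 0.0864) and WRKY6 of senescence and defence (0.71, adjusted p = 0.0502). None of these 9 passed.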

How the data were processed

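Per the labels, above-ground tissue of variegated msh1 RNAi, stunted msh1 RNAi and wild-type plants was hybridised to 9 Affymetrix arrays (3 per group), and the titles gave groups and replicate numbers. The deposited table holds log2 expression values, 1 per probe set and array. Per the submitters' processing notes they were made with RMA and the affy package, with no version named. RMA gives every array about the same distribution, which hides any global shift of transcript levels, and values near the floor of 1.98 can be compressed. The sources used here do not give the background step. Arrays carry no read depth, and their number limits the precision.

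The 64 control probe sets were set aside and the other 22746 went into a limma 3.58.1 fit (R 4.3.3), with 1 mean per group over all 9 arrays, empirical Bayes moderation (6 residual and 3.18 prior degrees of freedom) and no further normalization. The contrasts were the mean of both RNAi groups minus wild type and stunted minus variegated, two-sided, with Benjamini-Hochberg adjustment over all probe sets. Adjusted p-values are limma's and SE is its moderated standard error. Comparisons of each phenotype with wild type share the wild-type arrays and are given side by side. Control signals were compared with an exact permutation test over arrays. On simulated arrays with 200 changed probe sets, this contrast found 66% of the 0.5 changes and 100% of those of 1 or 2, with 8 false calls among 191 (22746 probe sets). The simulated noise was normal and independent, and each change was the same in both phenotypes, so these rates need not hold for the real arrays. There rpl16 at 1.36 and AT3G02480 at 1.81 did not pass (adjusted p = 0.0649 and 0.114).

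Genes were named through the platform's annotation, which is old: 13513 probe sets (59.4%) had 1 gene, 503 several and 8730 none listed. The brightest probe set stood for a gene with several, which left 13356 genes, of which 13334 were matched in the RefSeq gene table of TAIR10.1, used only for names. Positions are not given, since the files name no build. Of 54 gene lists, 37 had 3 or more measured genes. The members, the lists and their tests were chosen with earlier results of these data known, and some lists were added or trimmed after the files were opened, so a list's count is a description. Genes were named by a rule: the 12 largest rises and falls called and separated, up to 4 called members per list or the smallest p where none passed, the 5 largest and 5 smallest differences between phenotypes, and the 4 called genes on either side of the separation limit. Alternatives covered the normalization, dim probe sets, the model, moderation, array weights, 3 control signals as covariates, the replicate number as a block and leaving out each array. A planned count of promoter motifs was not run because no sequence was at hand.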

Additional observations from a re-analysis of the deposited data

Results flagged for a closer look

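In 11 of the 24 largest rises and falls the 2 RNAi phenotypes differed from each other by limma's test of stunted minus variegated (adjusted p under 0.05). Over all genes that difference was called higher in 0.569% and lower in 0.846%, and the 24 were chosen by the size of their mean change in the same arrays. The stunted plants were the farther from wild type in 10 of the 11. Of those 10, 4 rose, with differences of 2.33 in AT1G09500, 2.23 in AT1G05340, 1.40 in AT1G68440 and 1.27 in AT3G57020. The other 6 fell, with differences of -1.90 in AT5G22580, -1.48 in AT2G14900, -1.37 in AT1G62500, -1.23 in EXPB3, -1.13 in AT1G27030 and -0.83 in GH9B8. AT2G21640 of the mitochondrial dysfunction list was the exception: it rose in both phenotypes, and its difference of -1.07 puts the variegated plants farther from wild type. The SE of these differences ran from 0.10 in AT3G57020 to 0.36 in AT1G09500.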

How the results depend on the processing

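The main fit called 696 probe sets higher and 658 lower. The totals called in other fits, whether or not in the main fit, were 165 and 152 with the 6 RNAi arrays as 1 group. They were 162 and 125 without moderation and 290 and 388 with the bioB signal as a covariate, while array weights gave 1041 lower. Leaving out each array gave 336 to 1015 higher and 272 to 972 lower. Of probe sets separated above (1192) and below (957), 27 and 55 kept a gap of at least 0.5, and omissions gave 1307 to 2109 above and 1028 to 1688 below. The labels give nothing that ties a replicate number across groups. Deviations of same-numbered arrays correlated at 0.00 to 0.28, not above 0.1 in every pair, so the arrays were not treated as paired, although 6 of 9 pairs were highest for their own number, a hint from the data and not from the design. With a replicate block, 939 probe sets were called higher and 843 lower, and stunted and variegated differed in 96 of the called and separated genes in place of 61. The block ended the call of 2 of 88 called genes named, BSMT1 (adjusted p = 0.052) and SWEET17 (0.0671). Without moderation 57 of the 88 lost the call, and with the actin signal or an intensity trend 3 each. Over 104 named genes and all alternatives, 1800 of 2179 values stayed on their side of the threshold, 347 lost and 26 gained the call, and 6 changed sign, in genes that had not passed: GI (-0.06 with bioB, -0.08 to 0.32 over the omissions), SPCH (-0.01 to 0.08 over the omissions), INO (-0.01 to 0.07) and ATA27 (0.00 with bioB, -0.20 to 0.02 over the omissions). The cause was not tested. With 3 arrays per group, changes under 0.5 are often missed, and larger ones can be missed in genes that vary between arrays. Near the floor of the scale the size of a change is uncertain.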

Other observations

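Further shared falls of at least 1 lay outside the naming rule and were picked after their values were seen. AT3G51450, a strictosidine synthase-like gene like AT3G57020 among the rises, read 6.34, 5.83 and 5.69 in variegated and 6.55, 6.05 and 5.70 in stunted plants, against 7.18, 7.40 and 7.26 in wild type. It fell by 1.25 (SE 0.19, adjusted p = 0.00783), so these 2 members of the family changed in opposite directions, and it differed by 0.15 (SE 0.22) between stunted and variegated plants, whereas AT3G57020 differed by 1.27.

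AT3G11880 read 3.3, 3.32 and 3.52 in variegated and 3.69, 3.65 and 3.83 in stunted plants, against 5.21, 4.74 and 4.93 in wild type. It fell by 1.41 (SE 0.10, adjusted p = 0.000423), and all RNAi arrays lay 0.92 or more below wild type. Unlike most falls, it was higher in stunted than in variegated plants, by 0.34 (SE 0.12, adjusted p = 0.206), a difference that did not pass.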
